A study of Mus musculus with 24 samples.

Results

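The insulin-like growth factor (IGF) axis was followed through 10 genes, chosen by symbol from the deposited gene table of 24043 genes: the ligands Igf1 and Igf2, the receptors Igf1r and Igf2r, the receptor substrates Irs1 and Irs2, and the binding proteins Igfbp2, Igfbp3, Igfbp4 and Igfbp5. All 10 were present in the table and all 10 passed the filter on low values, which asked for a mean of at least 1 FPKM (fragments mapped to a transcript, scaled to its length and to the library's total) in at least 1 group. The cells were C2C12, an established mouse myoblast line, and the labels name no genetic change or drug in any group. They were either proliferating in growth medium with fetal bovine serum or kept in differentiation medium with horse serum and ITS, a supplement that usually holds insulin, transferrin and selenium, and each medium was combined with 21% oxygen (normoxia) or 2% oxygen (hypoxia). Each of the 4 groups had 2 RNA-seq libraries, A and B, which the series' design calls biological replicates. The labels do not say for how many days the differentiation medium was used.

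IGF-I and IGF-II are small secreted proteins related to insulin. They signal through the tyrosine kinase IGF1R, which recruits the adaptor proteins IRS1 and IRS2 and through them phosphoinositide 3-kinase, AKT and mTOR, while IGF2R lacks a kinase and carries IGF-II to the lysosome. The binding proteins hold the ligands outside the cell and can limit or aid their access to the receptor. In cultured myoblasts the axis is known to promote both proliferation and differentiation, and autocrine IGF-II is a known feature of myoblasts leaving the cell cycle. Insulin at the levels used in culture supplements can also engage IGF1R.

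Between 14917 and 15672 genes were above 0 in each library. Counts were not given, so the absolute depth is unknown. Replicate A of hypoxic differentiation medium was set to a relative depth of 1. For each other library it was the most common ratio of low values in that replicate to those in the library. Relative depth ran from 0.632 to 1. The shallowest and the deepest library were replicates B and A of hypoxic differentiation medium, and this pair stood apart: 613 genes differed more than 2-fold between them, against 56 to 71 in the other 3 groups. All 15 genes of a short cell cycle list were higher in its replicate B, with a median log2(FPKM + 1) of 2.505 in A and 4.90 in B, beside 2.74 and 2.75 in normoxic differentiation medium, 4.62 and 4.48 in normoxic growth medium and 3.76 and 3.58 in hypoxic growth medium. Replicate B was thus above every growth medium library. Tests of single genes that rest on this group are therefore given with both of its libraries and with each left out; "without A" and "without B" alone refer to these 2 libraries. Of 8 muscle lineage markers, all 8 averaged at least 1 FPKM in both normoxic groups, 5 in hypoxic growth medium and 6 in hypoxic differentiation medium, and their summed level was 4075 to 4148 FPKM in normoxic differentiation medium, 464 to 551 in normoxic growth medium, 126 to 130.3 in hypoxic growth medium and 90.4 to 126.5 in hypoxic differentiation medium. Myog, a regulator of muscle differentiation, was at 2576 and 2642 FPKM in normoxic but 4.49 and 2.14 in hypoxic differentiation medium, and Myh3, an embryonic myosin, at 149.8 and 146 against 0.933 and 0.417. "Differentiation" below therefore names the change of medium, not the state the cells reached. Endothelial, epithelial and adipocyte marker sums were at most 1.18 FPKM in every library. Fewer cells of a type and less RNA per cell cannot be told apart in bulk libraries.

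The sequence before the annotated start site is shown for 5 members, because Igf2 and Igf2r ranked the 4 groups in the same order, Igf1 moved against Igf2 in normoxic differentiation, and Igfbp2 and Igfbp5, neighbouring protein-coding genes on chromosome 1, moved in opposite directions there. Each run is the 250 bases before a start site, 5′ to 3′ on the gene's strand, from RefSeq on GRCm38.p6, which is not the mm9 build named in the submitters' processing notes. Capitals mark ACGTG or GCGTG on either strand, the core that hypoxia-inducible factors recognise, and CAGCTG, an E-box that MyoD can bind.
Igf2 (chr7:142658805-142659054, minus strand): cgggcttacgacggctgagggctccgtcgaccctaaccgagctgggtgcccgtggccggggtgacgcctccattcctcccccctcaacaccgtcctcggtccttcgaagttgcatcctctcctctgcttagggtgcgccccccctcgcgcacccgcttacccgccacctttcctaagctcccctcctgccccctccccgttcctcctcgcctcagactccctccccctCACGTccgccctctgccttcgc
Igf1 (chr10:87860861-87861110, plus strand): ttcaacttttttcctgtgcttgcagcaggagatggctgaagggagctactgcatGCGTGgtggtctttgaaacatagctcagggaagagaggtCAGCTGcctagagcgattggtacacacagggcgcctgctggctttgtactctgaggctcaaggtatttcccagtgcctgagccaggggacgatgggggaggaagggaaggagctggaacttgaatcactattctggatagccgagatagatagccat
Igf2r (chr17:12769707-12769956, minus strand): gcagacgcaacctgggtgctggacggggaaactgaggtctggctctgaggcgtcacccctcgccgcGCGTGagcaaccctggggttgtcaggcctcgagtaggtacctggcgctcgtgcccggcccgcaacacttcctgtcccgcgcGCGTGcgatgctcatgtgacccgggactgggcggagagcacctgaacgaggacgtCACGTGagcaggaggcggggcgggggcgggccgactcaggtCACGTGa
Igfbp2 (chr1:72824230-72824479, plus strand): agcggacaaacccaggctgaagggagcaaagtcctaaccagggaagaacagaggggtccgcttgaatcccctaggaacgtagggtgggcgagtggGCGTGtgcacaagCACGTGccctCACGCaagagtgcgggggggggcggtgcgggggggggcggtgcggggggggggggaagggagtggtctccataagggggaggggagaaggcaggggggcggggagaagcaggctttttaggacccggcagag
Igfbp5 (chr1:72874866-72875115, minus strand): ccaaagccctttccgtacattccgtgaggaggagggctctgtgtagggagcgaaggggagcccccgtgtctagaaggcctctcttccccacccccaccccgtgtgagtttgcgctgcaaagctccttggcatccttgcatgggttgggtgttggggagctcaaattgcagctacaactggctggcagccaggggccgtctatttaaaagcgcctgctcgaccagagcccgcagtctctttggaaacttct
The palindrome CACGTG holds the core on both strands and was counted as 1 site; it is also an E-box of the form CANNTG. Of 32851 mouse windows of this length, 38.6% held at least 1 hypoxia core and 13.0% held CAGCTG. All 10 members were found in the RefSeq table, with 14 windows in all. The core was in 8 of them and CAGCTG in 1, that of Igf1, 157 bases before the start site. Both forms of the core contain CG. The windows shown held 22 CG (Igf2), 5 (Igf1), 27 (Igf2r), 14 (Igfbp2) and 10 (Igfbp5), beside a median of 6 over all windows. The windows not shown held 6, 10 and 1 CG for Igf2 and 11 for Igfbp2. The part of base composition in the matches was not tested. Igf2r had 4 core sites, 184, 103, 48 and 7 bases before its start. Of all windows, 4.65% held at least 3. The window of Igf1r, not shown, held 3 core sites and 42 CG. Igf2 has 4 windows in the table, of which the 1 shown holds a core, 22 bases before the start. Igfbp2 has 2 windows. The 1 shown holds 3 core sites, 155, 142 and 132 bases before its start, and the other holds none. For both genes the gene-level values do not say which start was used. Neither motif was found in the windows of Igfbp4 and Igfbp5. These matches describe letters only.

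Igf2, the gene for IGF-II, had the largest difference between groups of the 10 genes. It read 3.82 and 3.02 FPKM in growth medium under normoxia and 1.36 and 1.43 under hypoxia (A and B of each). The differentiation medium libraries gave 272 and 269 under normoxia and 0.531 and 0.624 under hypoxia. The normoxic differentiation libraries stood far above all others, and no 2 groups overlapped. In rank, Igf2 was the 277th and 287th most abundant gene in those libraries and between the 11732nd and 11885th in hypoxic differentiation medium. At 21% oxygen it rose 79.2-fold with differentiation medium, a log2 change of 5.95 ± 0.11 (SE, limma adjusted p 2.11e-07). At 2% oxygen the change of medium lowered it, by -0.60 ± 0.11 (adjusted p 0.00736; -0.56 without A, -0.64 without B), a call that was lost without replicate B of hypoxic growth medium (adjusted p 0.0535). In differentiation medium it was 469-fold lower in hypoxia (-7.43 ± 0.11, adjusted p 1.40e-07), and leaving out replicate A or B of the hypoxic group gave -7.39 or -7.47. Because the low side lies under 1 FPKM, the pseudocount shapes this value, which was -8.65 with a pseudocount of 0.1. The antisense transcript Igf2os was at 0.621 and 0.506 FPKM in normoxic differentiation medium and at most 0.0271 elsewhere, and whether strand was used in counting is not stated.

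Igf1, the gene for IGF-I, was highest in normoxic growth medium and lowest in normoxic differentiation medium. It stood at 5.82 and 6.11 FPKM in growth medium under 21% oxygen and at 1.46 and 1.20 under 2%. In differentiation medium the levels were 0.926 and 0.695 under 21% oxygen and 1.34 and 1.77 under 2%. Only the hypoxic groups overlapped. Igf1 fell 7.36-fold with differentiation at 21% oxygen (-1.95 ± 0.13, adjusted p 2.70e-05) and was 4.48-fold lower at 2% oxygen in growth medium (-1.58 ± 0.13, adjusted p 0.000261). At 2% oxygen the change with differentiation medium was 0.13, with a 95% interval of -0.18 to 0.44 (adjusted p 0.462; 0.25 without A, 0.01 without B). Within differentiation medium it was 1.92-fold higher in hypoxia (0.50 ± 0.13, adjusted p 0.0132; 0.62 without A, 0.37 without B), a call that was lost with array quality weights (adjusted p 0.0562) and without replicate B of the normoxic group (adjusted p 0.0814).

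**Figure D1:**
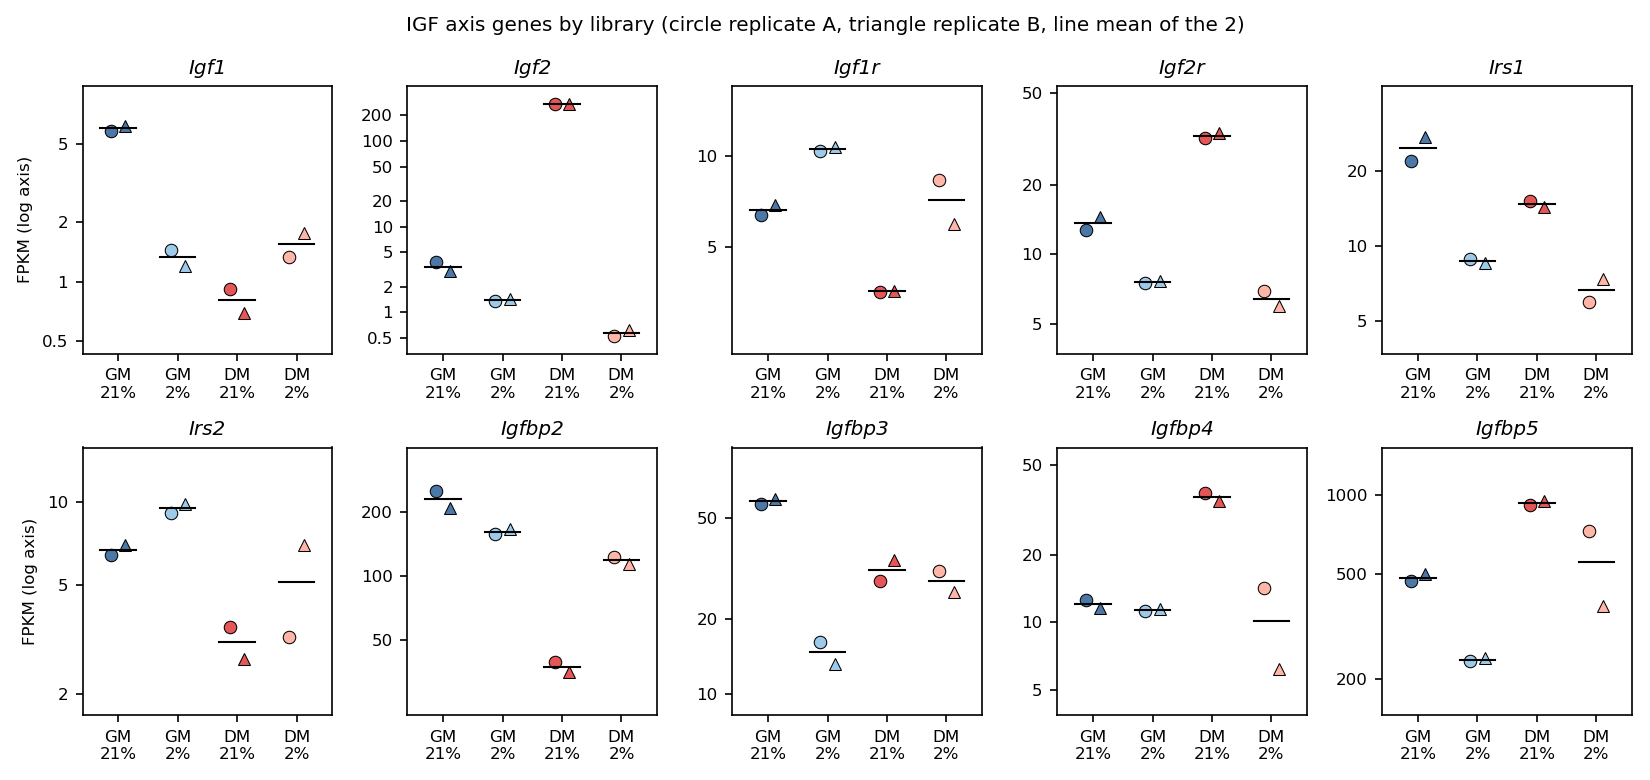
FPKM (log axis, scaled per gene) of the 10 IGF axis genes in each of the 8 libraries, by medium (GM growth, DM differentiation) and oxygen; circles are replicate A, triangles replicate B and lines the mean of the 2. Igf2 stands at 272 and 269 FPKM in normoxic differentiation medium and at no more than 3.82 in any other library.

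The 2 receptors moved in opposite directions in normoxic differentiation. Igf1r, the signalling receptor, measured 6.38 and 6.90 FPKM in the normoxic and 10.4 and 10.7 in the hypoxic growth libraries. The matching differentiation libraries held 3.53 and 3.58 (normoxic) and 8.33 and 5.96 (hypoxic). It was highest in hypoxic growth medium and lowest in normoxic differentiation medium, while hypoxic differentiation and normoxic growth overlapped. Igf1r fell 1.87-fold with differentiation at 21% oxygen (-0.75 ± 0.15, adjusted p 0.00396) and was 2.01-fold higher in hypoxia within differentiation medium (0.82 ± 0.15, adjusted p 0.00253; 0.61 without A, 1.03 without B). It was 1.59-fold higher in hypoxia within growth medium (0.60 ± 0.15, adjusted p 0.0179), but not past the threshold when any of the 4 libraries compared was left out. Over all 15 alternatives this change stayed at 0.55 to 0.77. The SE draws on all 4 groups, and the hypoxic differentiation replicates differed most (0.42 in log2, against -0.10 and -0.04 in the growth medium groups). The fall with differentiation at 2% oxygen (-0.52 ± 0.15, adjusted p 0.0308) was lost under 6 of 15 alternatives and became -0.73 or -0.31 when replicate A or B of hypoxic differentiation medium was left out.

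Igf2r, the scavenging receptor for IGF-II, followed the group order of Igf2. It read 12.8 and 14.6 FPKM in growth medium under normoxia and 7.50 and 7.71 under hypoxia (A and B of each). The differentiation medium libraries gave 31.7 and 33.4 under normoxia and 6.92 and 5.97 under hypoxia. No groups overlapped, although the hypoxic groups lay close together. Igf2r rose 2.38-fold with differentiation at 21% oxygen (1.19 ± 0.11, adjusted p 9.28e-05). It was 1.80-fold lower in hypoxia in growth medium (-0.77 ± 0.11, adjusted p 0.00182) and 5.05-fold lower in differentiation medium (-2.17 ± 0.11, adjusted p 6.46e-06; -2.27 without A, -2.08 without B). At 2% oxygen its change with medium was -0.21, with an interval of -0.46 to 0.04 (adjusted p 0.153), and it passed the threshold without replicate A of hypoxic differentiation medium (-0.30, adjusted p 0.0492; -0.12 without B). Airn, the imprinted transcript that overlaps Igf2r on the opposite strand, stood at 1.93 and 1.90 FPKM in growth medium under 21% oxygen and at 0.912 and 0.800 under 2%. In differentiation medium the levels were 8.12 and 8.86 under 21% oxygen and 3.20 and 1.33 under 2%. Reads from the overlapping stretch cannot be told apart if strand was not used.

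Irs1 and Irs2 encode docking proteins that pass the receptor's signal on. Irs1 measured 21.9 and 27.3 FPKM in the normoxic and 8.84 and 8.52 in the hypoxic growth libraries. The matching differentiation libraries held 15.1 and 14.4 (normoxic) and 5.95 and 7.40 (hypoxic). Every normoxic library was above every hypoxic one. Irs1 was 2.83-fold lower in hypoxia in growth medium (-1.39 ± 0.14, adjusted p 0.000501) and 2.21-fold lower in differentiation medium (-1.04 ± 0.14, adjusted p 0.000595; -0.91 without A, -1.18 without B). It fell 1.67-fold with differentiation at 21% oxygen (-0.69 ± 0.14, adjusted p 0.00398). At 2% oxygen its change was -0.34, with an interval of -0.67 to -0.01 (adjusted p 0.0895), which passed the threshold (adjusted p 0.0440) under median-of-ratios scaling and, leaving out replicate B of hypoxic differentiation medium, at adjusted p 0.0307 (-0.48; -0.20 without A).

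Irs2 read 6.43 and 6.95 FPKM in growth medium under normoxia and 9.08 and 9.83 under hypoxia (A and B of each). The differentiation medium libraries gave 3.51 and 2.69 under normoxia and 3.22 and 6.97 under hypoxia. Hypoxic growth medium was above the rest, and the hypoxic differentiation libraries spanned the values of normoxic growth medium. The fall with differentiation at 21% oxygen was 2.16-fold (-0.91 ± 0.28, adjusted p 0.0253). The SE draws on all 4 groups, and for Irs2 the hypoxic differentiation replicates differed most (-0.92 in log2, against -0.10 and 0.29 in the normoxic groups). The call held in a fit of just the 4 libraries compared. With any of these left out, the change was -1.06 to -0.77 and did not pass the threshold. No other comparison of Irs2 passed it with all libraries on the deposited scale. The change with differentiation at 2% oxygen was -0.85 ± 0.28 (adjusted p 0.0504; 0.0270 after median-of-ratios and 0.0265 after upper-quartile scaling). It was -1.31 (adjusted p 0.00119) without replicate B and -0.39 (adjusted p 0.0647) without replicate A of hypoxic differentiation medium. The oxygen difference was 0.44 in growth medium, with an interval of -0.23 to 1.12 (adjusted p 0.249), and it passed the threshold without replicate A or B of hypoxic differentiation medium (adjusted p 0.0216 and 0.0196) and in a fit of just the 4 libraries at issue (adjusted p 0.0122). In differentiation medium it was 0.51, with an interval of -0.17 to 1.18 (adjusted p 0.153), and 0.97 (adjusted p 0.00154) without A and 0.05 without B.

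Among the binding proteins, Igfbp2 was lower and Igfbp5 higher in normoxic differentiation medium. Igfbp2 stood at 252 and 210.4 FPKM in growth medium under 21% oxygen and at 158 and 166 under 2%. In differentiation medium the levels were 39.6 and 35.5 under 21% oxygen and 123 and 115 under 2%. No groups overlapped, and the normoxic differentiation libraries were the lowest. Igfbp2 fell 6.16-fold with differentiation at 21% oxygen (-2.59 ± 0.11, adjusted p 3.86e-06) and 1.37-fold at 2% oxygen (-0.45 ± 0.11, adjusted p 0.0179; -0.49 without A, -0.40 without B). The second of these calls was lost with array quality weights (adjusted p 0.0634) and without either library of hypoxic growth medium (adjusted p 0.0710 and 0.105). In differentiation medium it was 3.16-fold higher in hypoxia (1.64 ± 0.11, adjusted p 2.54e-05; 1.59 without A, 1.68 without B). In growth medium it was 1.43-fold lower in hypoxia (-0.51 ± 0.11, adjusted p 0.0104), which did not hold after median-of-ratios scaling (-0.39, adjusted p 0.0512), after upper-quartile scaling (-0.31, adjusted p 0.0739) or without replicate A of the hypoxic group (adjusted p 0.0717).

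Igfbp5, a binding protein abundant in myoblasts, was the most highly expressed of the 10 genes in all 8 libraries. It measured 469 and 498 FPKM in the normoxic and 233 and 239 in the hypoxic growth libraries. The matching differentiation libraries held 913 and 944 (normoxic) and 729 and 378 (hypoxic). The normoxic differentiation libraries were highest and ranked 81st and 74th of all genes, and the hypoxic differentiation libraries lay on either side of normoxic growth medium. Igfbp5 was 1.92-fold higher after differentiation at 21% oxygen (0.94 ± 0.27, adjusted p 0.0197) and 2.34-fold higher at 2% oxygen (1.15 ± 0.27, adjusted p 0.0163). The SE draws on all 4 groups, and for Igfbp5 the hypoxic differentiation replicates differed most (0.94 in log2, against -0.09 and -0.05 in the normoxic groups). The call at 21% oxygen held in a fit of just the 4 libraries compared. With any of these left out the call was lost, while the change stayed at 0.90 to 0.98. The call at 2% oxygen was lost without either library of hypoxic growth medium and in a fit of just the 4 libraries at issue (adjusted p 0.0693). Leaving out replicate A of hypoxic differentiation medium gave a rise of 0.68 at 2% oxygen, and leaving out B gave 1.62. Its difference with hypoxia was -1.03 ± 0.27 in growth medium (adjusted p 0.0225, lost under 8 of 15 alternatives) and -0.82 ± 0.27 in differentiation medium (adjusted p 0.0331, lost under 9 of 15). Leaving out replicate A of the hypoxic group gave -1.29 in differentiation medium, and leaving out B gave -0.35.

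Igfbp3, the main carrier of circulating IGFs, read 57.2 and 59.6 FPKM in growth medium under normoxia and 16.2 and 13.2 under hypoxia (A and B of each). The differentiation medium libraries gave 28.1 and 34.3 under normoxia and 30.9 and 25.5 under hypoxia. The differentiation medium groups overlapped and lay between the growth medium groups, so that the change with medium ran in opposite directions at the 2 oxygen levels. Igfbp3 fell 1.87-fold with differentiation at 21% oxygen (-0.89 ± 0.15, adjusted p 0.00166) and rose 1.92-fold at 2% oxygen (0.89 ± 0.15, adjusted p 0.00420; 0.76 without A, 1.03 without B). In growth medium it was 3.97-fold lower in hypoxia (-1.92 ± 0.15, adjusted p 0.000210). In differentiation medium the oxygen difference was -0.14, with an interval of -0.49 to 0.21 (adjusted p 0.425; -0.28 without A, -0.0045 without B).

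Igfbp4, a binding protein known mainly as an inhibitor of IGF action, stood at 12.6 and 11.5 FPKM in growth medium under 21% oxygen and at 11.3 and 11.5 under 2%. In differentiation medium the levels were 37.5 and 34.8 under 21% oxygen and 14.1 and 6.18 under 2%. Normoxic differentiation medium stood above the other groups, and the hypoxic differentiation libraries lay on either side of hypoxic growth medium. Igfbp4 rose 3.00-fold with differentiation at 21% oxygen (1.51 ± 0.31, adjusted p 0.00457) and was 3.55-fold lower in hypoxia in differentiation medium (-1.83 ± 0.31, adjusted p 0.00188). Leaving out replicate A of the hypoxic group gave -2.37, and leaving out B gave -1.29. With differentiation at 2% oxygen the value was -0.25, with an interval of -0.98 to 0.49 (adjusted p 0.564), and its sign followed the library kept: 0.29 (adjusted p 0.0469) without replicate B and -0.78 (adjusted p 0.00144) without replicate A. The oxygen difference in growth medium was -0.08 (adjusted p 0.869) and turned positive after median-of-ratios (0.03) and upper-quartile scaling (0.11).

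**Figure D2:**
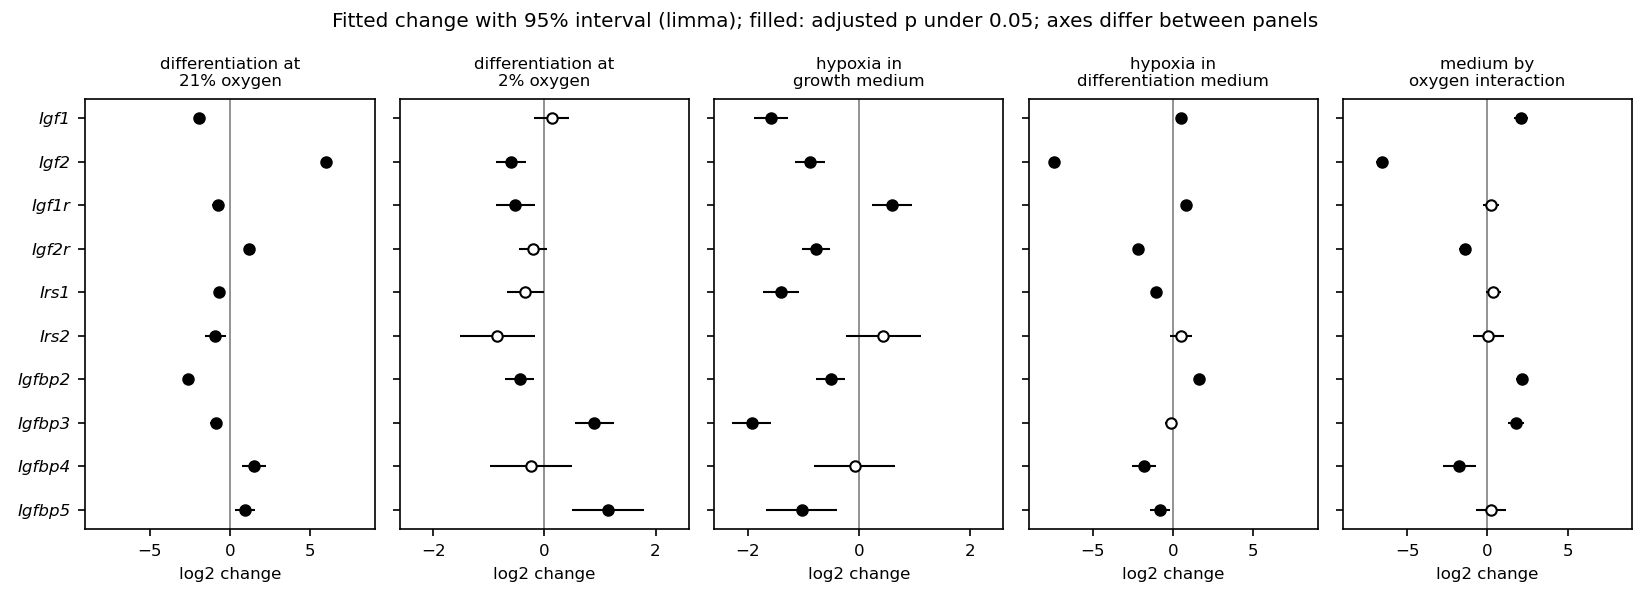
Fitted log2 change (x axis, log2(FPKM + 1) scale) of each IGF axis gene in the 5 comparisons, with 95% intervals; filled points have an adjusted p under 0.05, and the x axes differ between panels. In normoxic differentiation all 10 genes are filled, 4 to the right of 0 and 6 to the left.

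Counted by comparison, all 10 genes were called at 21% oxygen with the change of medium, 4 higher and 6 lower, where 66.5% of the 12389 genes tested were called (25.5% higher and 41.0% lower). This count was 8 when any of the 4 libraries compared was left out. At 2% oxygen 5 genes were called, 2 higher and 3 lower, against 40.9% of all genes (23.3% higher and 17.6% lower). That count was 7 without replicate A and 8 without replicate B of hypoxic differentiation medium, 2 and 1 without replicate A and B of hypoxic growth medium, and 3 in a fit of just the 4 libraries at issue. Hypoxia in growth medium changed 8 of the 10, with Igf1r the single higher gene and 7 lower, against 41.4% of all genes (13.5% higher and 28.0% lower), and 5 without replicate A of hypoxic growth medium. In differentiation medium hypoxia changed 8, 3 higher and 5 lower, against 65.2% of all genes (37.5% higher and 27.7% lower), and 9 without A and 8 without B. In normoxic differentiation the median size of the log2 change, sign aside, was 1.07 over the 10 genes and 0.61 over all genes tested. At 2% oxygen these medians were 0.48 and 0.33. For hypoxia in growth medium they were 0.82 and 0.33, and in differentiation medium 0.93 and 0.60. The median signed change of all genes was -0.20, 0.07, -0.14 and 0.15 in the same order on the deposited scale and between -0.04 and 0.03 after median-of-ratios scaling. The comparisons share libraries and are not independent of each other.

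The interaction asks whether the change with differentiation medium differed between oxygen levels, and it is the change at 2% minus that at 21%. It passed the threshold for 6 of the 10 genes, against 54.1% of all genes (35.4% positive and 18.7% negative), and for 8 without A and 8 without B. Igf2 (-6.55 ± 0.16, adjusted p 1.96e-06; -6.51 without A, -6.59 without B), Igfbp4 (-1.75 ± 0.44, adjusted p 0.0139; -2.29 without A, -1.22 without B) and Igf2r (-1.40 ± 0.15, adjusted p 0.000401; -1.496 without A, -1.31 without B) had a more negative change in hypoxia, and these are 3 of the 4 genes that rose in normoxia. Igfbp2 (2.14 ± 0.15, adjusted p 8.14e-05; 2.09 without A, 2.19 without B), Igf1 (2.08 ± 0.18, adjusted p 0.000187; 2.197 without A, 1.96 without B) and Igfbp3 (1.78 ± 0.21, adjusted p 0.000590; 1.65 without A, 1.92 without B) had a more positive one, and all 3 had fallen in normoxia. The change at 21% oxygen is subtracted in the interaction, so a sign opposite to the normoxic change is partly built in and is no separate result. Igfbp4 lost the call without either library of normoxic differentiation medium. For Igfbp5, the fourth gene that rose in normoxia, the interaction was 0.21, with an interval of -0.71 to 1.12 (adjusted p 0.667), 0.68 (adjusted p 0.00225) without replicate B and -0.26 (adjusted p 0.0669) without replicate A of hypoxic differentiation medium, and negative after median-of-ratios scaling (-0.12). Igf1r (0.23, interval -0.27 to 0.72), Irs1 (0.35, interval -0.11 to 0.82) and Irs2 (0.06, interval -0.89 to 1.01) did not pass it. Igf1r turned negative after median-of-ratios scaling (-0.04) and passed the threshold without replicate B of hypoxic differentiation medium (0.44, adjusted p 0.0223; 0.01 without A), and Irs1 passed it without replicate A (0.49, adjusted p 0.0499; 0.215 without B). Irs2 was negative after median-of-ratios scaling (-0.20) and without replicate B (-0.39), and passed the threshold without replicate A (0.52, adjusted p 0.0492).

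The make-up of the axis differed between groups. Because FPKM is per length, levels of different genes can be set side by side, as a description without a test. Igf2 made up 39.6% and 33.1% of the summed FPKM of Igf1 and Igf2 in growth medium under normoxia and 48.2% and 54.2% under hypoxia. In differentiation medium its share was 99.7% and 99.7% under normoxia and 28.3% and 26.1% under hypoxia. The ligand sum was 273 and 270.1 FPKM in normoxic differentiation medium and 1.87 to 9.65 in the other libraries. The ratio of Igf2r to Igf1r was 8.96 and 9.33 in differentiation and 2.01 and 2.11 in growth medium under normoxia, and 0.831 and 1.00 in differentiation and 0.722 and 0.720 in growth medium under hypoxia. Thus Igf2r was the more abundant receptor transcript in the normoxic libraries and Igf1r in the hypoxic growth libraries. The ratio of Irs1 to Irs2 was 3.41 and 3.92 in growth and 4.31 and 5.33 in differentiation medium under normoxia, and 0.973 and 0.867 in growth and 1.85 and 1.06 in differentiation medium under hypoxia.

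Summed over Igfbp2 to Igfbp7, binding protein transcripts came to 1176 and 1105 FPKM in normoxic growth medium and 1102 and 1132 in normoxic differentiation medium (these ranges overlapped). Igfbp5 went from 39.9% and 45.1% of that sum to 82.9% and 83.3%, and Igfbp2 from 21.4% and 19.04% to 3.59% and 3.13%. In hypoxic growth medium the sum was lower, at 687 and 702 FPKM, with 34.0% and 34.1% from Igfbp5. In hypoxic differentiation medium it was 1062 and 690 FPKM in A and B, with 68.6% and 54.8% from Igfbp5. Igfbp1 was listed at 0 in all 8 libraries.

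**Figure D3:**
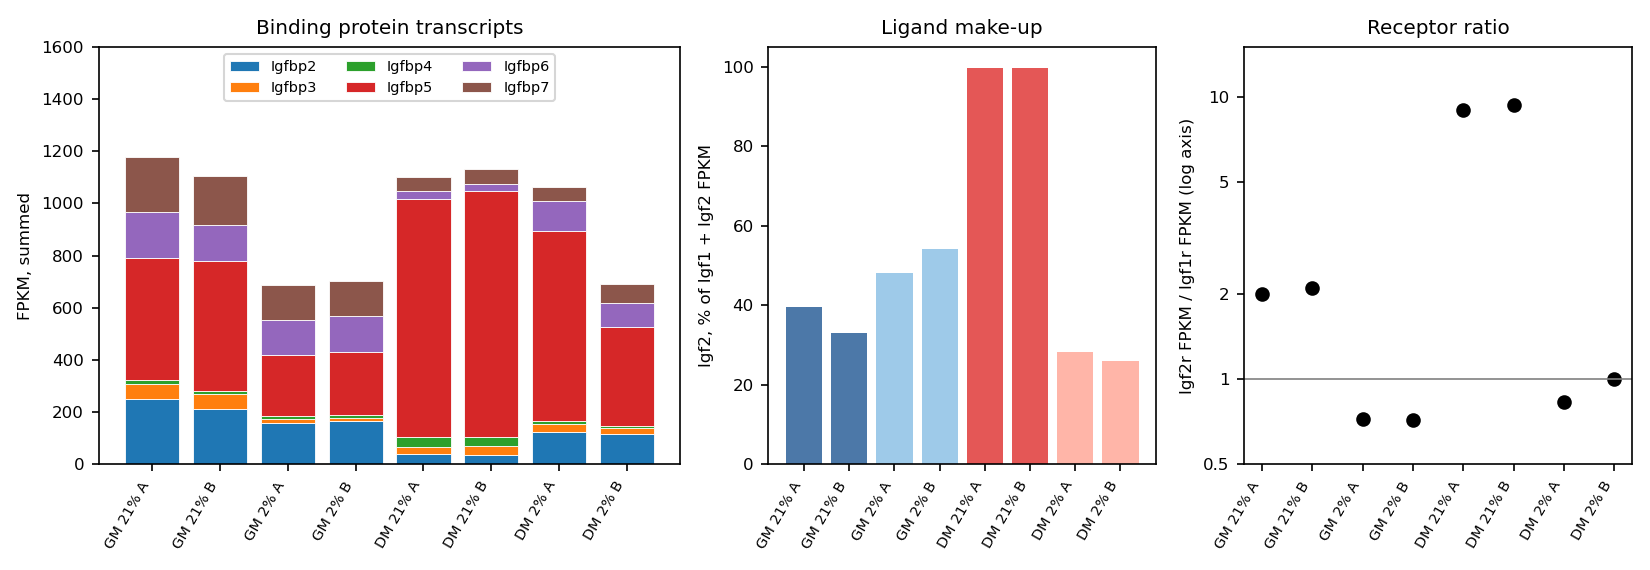
Left, summed FPKM of Igfbp2 to Igfbp7 in each library, stacked by gene. Middle, Igf2 as a percent of Igf1 plus Igf2 FPKM. Right, the ratio of Igf2r to Igf1r FPKM (log axis, line at 1). Igf2 makes up 99.7% of the ligand signal in normoxic differentiation medium, and Igfbp5 makes up 82.9% and 83.3% of the binding protein signal there.

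The difference between the hypoxic differentiation replicates was not shared evenly by the members. Igfbp4 was 2.29-fold and Igfbp5 1.93-fold higher in replicate A, and Irs2 was 2.16-fold higher in replicate B. For Igf2, Igf2r and Igfbp2 the log2 difference between these libraries was -0.09, 0.18 and 0.10. In the other 3 groups the largest such difference of any member was -0.30, for Irs1 in normoxic growth medium. The higher cell cycle list values of replicate B stand beside these differences, and their part in them was not tested.

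**Figure D4:**
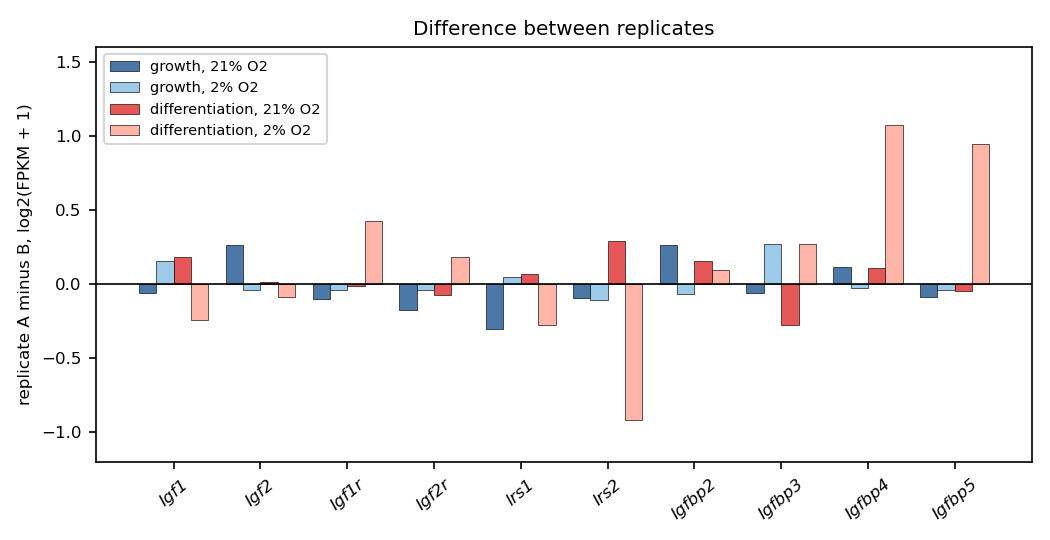
Replicate A minus replicate B in log2(FPKM + 1) for each IGF axis gene (bars, coloured by group). Igfbp4, Igfbp5 and Irs2 show differences of 1.08, 0.94 and -0.92 in hypoxic differentiation medium, while the largest bar of the other groups is -0.30.

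A list of 72 other genes of the pathway was written by role, and 60 of them passed the filter. With differentiation at 21% oxygen 22 were higher and 25 lower, at 2% oxygen 15 and 21, with hypoxia in growth medium 10 and 14, and with hypoxia in differentiation medium 16 and 22. Called genes were thus 78.3%, 60%, 40% and 63.3% of the 60, beside 66.5%, 40.9%, 41.4% and 65.2% of all genes tested. The median size of the change over the list, sign aside, was 0.61, 0.44, 0.32 and 0.59 in that order, beside 0.61, 0.33, 0.33 and 0.60 over all genes tested. Without replicate A or B of hypoxic growth medium, fewer genes of the list were called at 2% oxygen, and so it was over all genes tested. Fewer of the list were also called for hypoxia in growth medium. Without A and B of hypoxic differentiation medium in turn, the called genes were 39 and 36 at 2% oxygen and 43 and 42 for hypoxia in differentiation medium.

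Of the other binding proteins and carriers, Igfbp6 and Igfbp7 were expressed, and Igfbpl1 and Igfals were at most 0.0528 FPKM in any library. Igfbp6, which prefers IGF-II, fell with differentiation at 21% oxygen from a mean of 157.6 to 27.99 FPKM (-2.44 ± 0.14, adjusted p 1.28e-05), did not pass the threshold at 2% oxygen (-0.41, adjusted p 0.0517; -0.54, adjusted p 0.0224, without A and -0.27, adjusted p 0.161, without B) and was 3.68-fold higher in hypoxia in differentiation medium (1.84 ± 0.14, adjusted p 4.04e-05; 1.71 without A, 1.97 without B), the same directions as Igfbp2. Igfbp7 fell with differentiation at 21% oxygen (-1.80 ± 0.14, adjusted p 4.94e-05) and at 2% oxygen (-1.10 ± 0.14, adjusted p 0.00168; -0.89 without A, -1.30 without B). Among 6 tested proteases of the binding proteins and their inhibitors, all 6 changed with hypoxia in growth medium, 4 higher and 2 lower, where 41.4% of all genes were called (13.5% higher and 28.0% lower). With hypoxia in differentiation medium 4 of the 6 did (all genes 65.2%), with differentiation at 21% oxygen 5 (66.5%) and at 2% oxygen 4 (40.9%). Stc1, a stanniocalcin that inhibits the protease PAPP-A, rose with hypoxia from 0.581 to 6.93 FPKM in growth medium (2.33 ± 0.16, adjusted p 0.000145) and was 1.29 and 15.6 FPKM in normoxic and hypoxic differentiation medium (2.84 ± 0.16, adjusted p 1.20e-05; 2.64 without A, 3.05 without B). Its relative Stc2 also rose with hypoxia in growth medium, from 0.568 to 1.72 FPKM (0.81 ± 0.14, adjusted p 0.00523). Stc2 rose with differentiation at 21% oxygen too (3.61 ± 0.14, adjusted p 3.27e-06). In differentiation medium it was lower in hypoxia, with 18.0 FPKM under normoxia and 1.66 under hypoxia (-2.83 ± 0.14, adjusted p 8.28e-06; -2.83 without A, -2.84 without B). Pappa itself was at most 0.0852 FPKM and was not tested. Htra1, a secreted serine protease that can cleave binding proteins, was 5.40-fold higher in hypoxia in differentiation medium (2.39 ± 0.15, adjusted p 1.73e-05; 2.17 without A, 2.602 without B). Adamts1, a secreted metalloprotease, rose with differentiation at 2% oxygen (0.88 ± 0.16, adjusted p 0.00650; 0.65 without A, 1.11 without B). Mmp14, a membrane metalloprotease, was lower in hypoxia in growth medium, at 108.3 against 252.7 FPKM (-1.22 ± 0.08, adjusted p 0.000138).

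Of 14 tested receptors, adaptors and feedback genes, 2 were higher and 6 lower with differentiation at 21% oxygen, and 2 higher and 9 lower at 2% oxygen, where 66.5% and 40.9% of all genes were called. With hypoxia 6 were called in growth medium (all genes 41.4%) and 9 in differentiation medium (65.2%). Insr, the insulin receptor, rose 1.59-fold with differentiation at 21% oxygen (0.60 ± 0.11, adjusted p 0.00346) and fell at 2% oxygen (-0.46 ± 0.11, adjusted p 0.0205; -0.54 without A, -0.37 without B), a call lost under 5 of 15 alternatives, with an interaction of -1.05 ± 0.16 (adjusted p 0.00195; -1.14 without A, -0.96 without B). Socs2, a feedback inhibitor of growth hormone and IGF signalling, was at 43.9 FPKM in hypoxic growth medium and 5.81 in hypoxic differentiation medium (-2.72 ± 0.07, adjusted p 1.87e-05; -2.68 without A, -2.76 without B). Dok1, an adaptor that restrains receptor signalling, fell with differentiation at 21% oxygen from 45.6 to 10.5 FPKM (-2.01 ± 0.24, adjusted p 0.000362). With hypoxia in growth medium the feedback gene Socs1 (-1.87 ± 0.17, adjusted p 0.000392) and the phosphatase gene Ptpn1 (-1.47 ± 0.18, adjusted p 0.00105) were lower, and the interaction of Ptpn1 was 1.52 ± 0.25 (adjusted p 0.00255; 1.77 without A, 1.26 without B). Grb10, an imprinted inhibitor of the receptor, was at most 1.01 FPKM in any library and was not tested.

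H19, the imprinted non-coding RNA beside Igf2, had the same order of group means as Igf2, although its 2 growth medium groups overlapped. It measured 274 and 217 FPKM in the normoxic and 233 and 226 in the hypoxic growth libraries. The matching differentiation libraries held 3250.2 and 2875 (normoxic) and 89.5 and 119 (hypoxic). The rise at 21% oxygen was 12.5-fold (3.64 ± 0.17, adjusted p 5.91e-06), the change at 2% oxygen -1.14 ± 0.17 (adjusted p 0.00285; -0.94 without A, -1.35 without B) and the interaction -4.79 ± 0.24 (adjusted p 1.84e-05; -4.58 without A, -4.99 without B). Unlike Igf2, its difference with hypoxia in growth medium did not pass the threshold (-0.09 ± 0.17, adjusted p 0.713) and turned positive after median-of-ratios (0.03) and upper-quartile scaling (0.11) and without replicate A of normoxic growth medium (0.08); the 2 genes' responses were not tested against each other. Igf2bp2, which binds Igf2 mRNA, fell with differentiation at 21% oxygen (-0.76 ± 0.16, adjusted p 0.00564) and at 2% oxygen (-0.52 ± 0.16, adjusted p 0.0420; -0.27 without A, -0.78 without B), a call lost under 8 of 15 alternatives. Igf2bp1 and Igf2bp3 were at most 0.152 FPKM and not tested.

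Downstream, 30 genes of PI3K, AKT and mTOR were tested, of which 13 were higher and 12 lower with differentiation at 21% oxygen and 2 higher and 6 lower with hypoxia in growth medium, where 66.5% and 41.4% of all genes were called. At 2% oxygen 14 were called (all genes 40.9%), and with hypoxia in differentiation medium 19 (65.2%). Akt2, the AKT isoform of insulin-responsive tissues, was at a mean of 56.1 FPKM in growth and 118 in differentiation medium under normoxia, and of 33.1 and 32.3 under hypoxia. It rose with differentiation medium in normoxia (1.07 ± 0.07, adjusted p 3.27e-05), with an interaction of -1.10 ± 0.10 (adjusted p 0.000250; -1.08 without A, -1.12 without B). Pik3r1, the main regulatory subunit of PI3K, fell with differentiation at 21% oxygen (-0.61 ± 0.20, adjusted p 0.0346), a call lost under 9 of 15 alternatives, and did not pass the threshold elsewhere with all libraries on the deposited scale. Its change with differentiation at 2% oxygen was -0.39 (adjusted p 0.175), and -0.70 (adjusted p 0.00503) without A and -0.07 (adjusted p 0.685) without B. Without B its difference with hypoxia in differentiation medium (0.39, adjusted p 0.0290) and its interaction (0.54, adjusted p 0.0247) passed too, while without A they were -0.25 and -0.10. Its relative Pik3r3 rose with differentiation at 2% oxygen from 0.974 to 7.72 FPKM (2.08 ± 0.28, adjusted p 0.00201; 2.52 without A, 1.65 without B), with 5.15 in replicate A and 10.3 in B. With hypoxia in growth medium, the mTOR inhibitor gene Ddit4 rose 4.08-fold (2.01 ± 0.14, adjusted p 0.000147) and the translation repressor gene Eif4ebp1 rose 2.94-fold (1.56 ± 0.13, adjusted p 0.000307). Deptor, which binds and inhibits mTOR, fell with differentiation at 2% oxygen from 37.2 to 6.12 FPKM (-2.45 ± 0.18, adjusted p 0.000375; -2.72 without A, -2.18 without B). Of the FoxO outputs, the ubiquitin ligase gene Trim63 went from 0.262 to 37.3 FPKM with differentiation at 21% oxygen (4.93 ± 0.09, adjusted p 2.07e-07) and was at 0.0587 in hypoxic differentiation medium, while Fbxo32, the other atrophy ligase, fell at both oxygen levels (-1.93 ± 0.19, adjusted p 0.000144, and -1.58 ± 0.19, adjusted p 0.00143; -1.30 without A, -1.86 without B).

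Genes with the most similar profile over the 8 libraries were sought among 7519 or 7520 candidates with a mean of at least 10 FPKM in a group, by Pearson's r of log2(FPKM + 1), as a description. The 8 libraries form 4 groups of replicates, so the points are not independent. A candidate can meet the limit of 10 FPKM through 1 group alone, and a high r can then restate a shared peak there. Of the genes named below, Vgll2, Mfsd7a, Unc13d, Rps6ka2 and Rreb1 met it only in normoxic differentiation medium, where Igf2 and Igf2r were highest. Pip4k2a, Blnk, Eml4 and Pnmal2 met it only in normoxic growth medium, where Igf1, Irs1 and Igfbp3 were highest. In all, 473 candidates had an r above 0.95 with Igf2, 222 with Igf2r and 366 with Igfbp2, against 78 with Igf1, 109 with Igf1r, 66 with Irs1, 20 with Igfbp5, 19 with Igfbp4, 11 with Irs2 and 8 with Igfbp3. For Igf2 the nearest were Vgll2 (r = 0.999), Mfsd7a (0.998) and Unc13d (0.998). For Igf2r they were Rps6ka2 (0.996), Rreb1 (0.995) and Psmg4 (0.994), and for Igfbp2 Vipas39, Tnfsf12 and Tcf3 (each 0.998). Igf1 was nearest to Pip4k2a (0.993), Blnk (0.987) and Cyth2 (0.986). Igf1r was nearest to Rplp2 (0.996), Tnks1bp1 (0.991) and Trip10 (0.988). Irs1 was nearest to Atp2b4 (0.994), Map4k4 (0.991) and Eml4 (0.989), and Irs2 to Ezr (0.977), Map3k3 (0.969) and Tnip2 (0.964). Of the other binding proteins, Igfbp3 was nearest to Pabpn1 (0.972), Pnmal2 (0.970) and Ufc1 (0.967), Igfbp4 to Ttc33 (0.983), Arhgef2 (0.971) and Btbd1 (0.970), and Igfbp5 to Cbr4 (0.995), Srp19 (0.976) and Arl1 (0.974). Within the axis, the largest r by size were 0.96 between Igf2 and Igf2r, 0.93 between Igf2 and Igfbp4, and -0.96 between Irs2 and Igfbp5. Igf2, Igf2r and Igfbp4 were all highest in normoxic differentiation medium. Irs2 and Igfbp5 differed in opposite directions between the hypoxic differentiation replicates (A minus B, -0.92 and 0.94 in log2).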

How the data were processed

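RNA-seq libraries were prepared from total RNA with a stranded kit, per the labels' protocols. The authors deposited a gene table in FPKM, with a column for each RNA-seq library. STAR 2.5.1b, Cufflinks 2.2.1 and build mm9 are named in the submitters' processing notes; the annotation, the use of strand and any scaling between libraries are not given in the sources used here. The file name speaks of counts, but the values are not whole numbers, so no count test was run. Columns were matched to samples by title. Of 24043 symbols, 22659 are current and 23835 current or older mouse symbols. The 16 chromatin and input samples were not analysed here.

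Values were tested as log2(FPKM + 1) with limma 3.58.1 (R 4.3.3), a mean-variance trend and 4 group means over all 8 libraries (4 residual and 2.61 prior degrees of freedom), on 12389 genes with a mean of at least 1 FPKM in a group. Tests are two-sided, and p-values were adjusted over all genes of a comparison (Benjamini-Hochberg, threshold 0.05). Fold changes are ratios of mean FPKM; log2 changes carry the pseudocount of 1 FPKM and understate changes of low genes. Errors are SE, and every group has n = 2. An exact permutation test of 2 libraries against 2 cannot go below p = 0.333 and was not used. Low values gave relative depth (genes at most 0.5 FPKM). The members, the lists, the rule for named genes and the tests were chosen with earlier results of these data known. Every member is named; of the pathway list, the 3 largest called rises and falls per comparison (mean of at least 1 FPKM in both groups or 5 in 1) and a fixed set of 11 genes, 7 of them tested, are named. Alternatives were 2 scalings, a pseudocount of 0.1, no filter, a replicate block, only the libraries compared, array quality weights and leaving out each library; for the pathway genes these were added after seeing the data.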

Additional observations from a re-analysis of the deposited data

Results flagged for a closer look

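For 6 genes the response to differentiation medium differed between 2% and 21% oxygen by limma's interaction test. These were 60% of the axis genes, and 54.1% of all genes tested passed the same test. The log2 interaction was -6.55 for Igf2, -1.75 for Igfbp4, -1.40 for Igf2r, 2.08 for Igf1, 2.14 for Igfbp2 and 1.78 for Igfbp3. The call of Igfbp4 was lost without either library of normoxic differentiation medium. For Igfbp3 the change of medium itself had opposite signs, -0.89 at 21% oxygen and 0.89 at 2% oxygen, each past the threshold, and the same held for Igf2 (5.95 and -0.60). The fall of Igf2 at 2% oxygen was between low means, 1.39 and 0.578 FPKM. Its call was lost without replicate B of hypoxic growth medium. Igf1 fell at 21% oxygen by 1.95 on the log2 scale and its change at 2% oxygen did not pass the threshold.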

How the results depend on the processing

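Of 740 repeats of a member's result under an alternative, 665 kept direction and side of the threshold, 49 lost the call, 15 gained one and 11 changed sign. The calls of all members but Irs2 and Igfbp5 in normoxic differentiation held under all 15 alternatives. The interactions of Igf2, Igf1, Igf2r, Igfbp2 and Igfbp3 held under all 14. With only the libraries compared, the calls for differentiation at 2% oxygen were 3 in place of 5 axis genes, 20 in place of 36 pathway genes and 3034 in place of 5073 genes. Leaving out single libraries, these counts ran from 1 to 8, 18 to 39 and 2501 to 6529. For hypoxia in growth medium they ran from 5 to 9 axis genes (8 with all libraries), 15 to 32 pathway genes (24) and 2997 to 6844 genes (5135). A library left alone in its group is assumed to vary like the others. Sign changes were those of Igfbp4 for differentiation at 2% oxygen (0.29 without replicate B of hypoxic differentiation medium, -0.78 without A) and for hypoxia in growth medium (0.033 after median-of-ratios and 0.11 after upper-quartile scaling), and in the interaction those of Igf1r (-0.043, median-of-ratios), Igfbp5 (-0.12 median-of-ratios, -0.0044 upper-quartile, -0.26 without replicate A and 0.68 without replicate B of hypoxic differentiation medium) and Irs2 (-0.20 median-of-ratios, -0.12 upper-quartile, -0.39 without replicate B and 0.52 without A of that group, and -0.08 without replicate B of normoxic differentiation medium). None of these was past the threshold with all libraries on the deposited scale. For the pathway genes, where these alternatives were chosen after seeing the data, 808 of 874 repeats kept direction and side of the threshold, 36 lost the call, 15 gained one and 15 changed sign. Those were, for hypoxia in growth medium, Igfbp6 (0.0010, upper-quartile), Pik3r1 (0.036, upper-quartile) and H19 (0.030 median-of-ratios, 0.11 upper-quartile, and from -0.25 to 0.078 over left-out libraries); for hypoxia in differentiation medium, Igfbp7 (-0.055 median-of-ratios, -0.056 to 0.35 over left-out libraries), Igf2bp2 (-0.39 to 0.12) and Pik3r1 (-0.12 median-of-ratios, -0.25 to 0.39); for the interaction, Igf2bp2 (-0.059 median-of-ratios, -0.013 to 0.49) and Pik3r1 (-0.081 median-of-ratios, -0.097 to 0.54); and for differentiation at 2% oxygen, Akt2 (-0.079 to 0.0068). None of these 9 results was past the threshold with all libraries on the deposited scale. The cause was not tested. Scaling moved the share of higher genes among all calls from 38.4% to 53.6% with median-of-ratios scaling (46.9% with upper-quartile scaling) for differentiation at 21% oxygen, from 32.6% to 43.4% (52.1%) for hypoxia in growth medium, from 57.5% to 46.5% (57.0%) for hypoxia in differentiation medium and from 65.5% to 47.3% (54.6%) for the interaction.

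The labels do not say that the letters A and B pair libraries across groups, and the differences between A and B correlated between groups at -0.17 to 0.04 across genes. With a replicate block the counts of called axis genes were 10, 5, 8, 8 and 6 in the 5 comparisons, as without it, and 46, 32, 24, 35 and 32 of the pathway list.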

Other observations

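Of the fibroblast and preadipocyte list, Thy1 and Dpp4 were at or near 0 in all libraries (at most 0.0313 and 0.0374 FPKM). Ly6a was at 230 and 225 FPKM in growth medium under normoxia and at 349 and 345 under hypoxia; differentiation medium gave 344 and 350.1 under normoxia and 296 and 143 under hypoxia. Cd34 was at 75.9 to 89.1 FPKM in the growth medium libraries, 14.4 and 13.5 in normoxic and 218 and 143 in hypoxic differentiation medium. Pdgfra was at 10.3 and 11.99 FPKM in normoxic and 5.07 and 5.16 in hypoxic growth medium and at most 0.994 in differentiation medium. Cd68, a lysosomal protein gene used as a macrophage marker, was at 25.8 and 42.8 FPKM in hypoxic differentiation medium and at most 3.57 in the other libraries, while the blood lineage markers Ptprc, Itgam and Csf1r were at most 0.167 FPKM in every library. The part of these genes in the IGF axis results was not tested.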
